A study of Mus musculus with 4 samples.

Results

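Epithelial keratins were followed through basal and luminal cells of the developing mouse prostate, namely Krt4, Krt5, Krt6a, Krt7, Krt8, Krt14, Krt15, Krt17, Krt18 and Krt19. They were taken by gene name as the keratins of basal, simple and intermediate epithelium, 10 of the 49671 genes in the deposited table, and all 10 passed the filter on low values that left 18737 genes. RNA-seq was performed on untreated male CD-1 mice, described as of mixed background and aged postnatal day 10 to 13 in the sample labels. The study's text gives an upper end below day 13. Their ventral prostate lobes were cut so that the distal tips could be taken apart from the ducts. EpCAM-high cells without CD45, CD31 or CD140a were sorted by CD49f, an integrin subunit of the basal surface, into basal cells (CD49f high, described as multipotent) and luminal cells (CD49f low, described as basal-derived), with 2 libraries of each. Lobes of several mice were combined before sorting, no lineage tracer is named in the sort, and nothing in the labels says that libraries of a cell type came from separate animals, so p-values measure only the spread between these libraries.

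Keratins are the intermediate filament proteins of epithelia. A type I keratin pairs with a type II keratin, and neither forms filaments on its own. In the adult prostate, basal cells are marked by Krt5 (type II) with Krt14 (type I), and luminal cells by Krt8 (type II) with Krt18 (type I). Krt15 and Krt17 are type I keratins of basal layers, Krt19 is a type I keratin of simple and intermediate cells, Krt7 and Krt4 are type II keratins of simple and of non-cornifying epithelia, and Krt6a is a type II keratin induced by stress and wounding. Of the 10, 5 are type I and 5 type II. Krt4, Krt5, Krt6a, Krt7 and Krt8 lie in the type II cluster on chromosome 15 of GRCm38, Krt14, Krt15, Krt17 and Krt19 lie in the type I cluster on chromosome 11, and Krt18 is the exception, a type I gene next to Krt8 on chromosome 15.

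The sequences before the transcription start of Krt5 and Krt18 are shown because these genes had the highest level per kilobase in basal and in luminal cells. The Krt5 sequence lies at chr15:101712906-101713155 and the Krt18 sequence at chr15:102027966-102028179 (RefSeq, GRCm38.p6), on the minus and plus strand. Capitals mark a p53 family half-site, the kind of site that p63 binds, in Krt5 and an AP-2 motif (GCCNNNGGC) in Krt18. Both strands of the 250 bases before each RefSeq start were searched, and the Krt18 sequence is shown up to the start of the gene in GENCODE, which lies 36 bases before the RefSeq start.
Krt5: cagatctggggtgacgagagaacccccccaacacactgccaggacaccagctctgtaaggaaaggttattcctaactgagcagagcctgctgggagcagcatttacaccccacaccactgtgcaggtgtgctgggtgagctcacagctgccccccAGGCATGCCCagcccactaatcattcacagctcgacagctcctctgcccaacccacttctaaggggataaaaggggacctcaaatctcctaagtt
Krt18: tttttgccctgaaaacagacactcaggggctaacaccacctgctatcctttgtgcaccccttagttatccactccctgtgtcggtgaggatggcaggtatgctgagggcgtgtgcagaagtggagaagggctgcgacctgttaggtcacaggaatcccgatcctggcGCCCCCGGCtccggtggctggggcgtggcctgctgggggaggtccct
The half-site of Krt5 lies 95 to 86 bases before the start, and 7.13% of the 32851 promoter windows of this length hold one. The AP-2 motif of Krt18 lies 83 to 75 bases before the start, and 13.7% of windows hold one. A TATA box (TATAAA, in 12.4% of windows), a CCAAT box (CCAAT, 33.8%) and a GC box (GGGCGG, 32.7%) had no exact match in either window. The RefSeq table held 5 of the 10 keratins. Its starts of Krt7, Krt8 and Krt14 lie inside the gene bounds of the GENCODE annotation used for coordinates, and their windows are not shown.

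Values are normalized read counts, which the authors brought to the same total of aligned reads in every library. Low values were spaced evenly, and the spacing, taken as what 1 read is worth, was 6.26 and 6.49 in basal replicates 1 and 3 and 31.2 and 19.4 in luminal replicates 2 and 3. Dividing by it gave 3194268 and 3080433 reads for the basal libraries and 643267 and 1036662 for the luminal libraries, so that depth and cell type cannot be told apart. Low values of 522 genes were on another spacing, and none of the 10 keratins is among them. Non-keratin markers went with the sort: of 6 basal markers 4 were called lower in luminal cells by limma and 0 higher, and of 7 luminal markers 1 (Cldn3) was called higher and 0 lower. Of all genes tested, limma called 0.438% lower and 0.256% higher in luminal cells. Stromal markers summed to 105984 to 213482 in basal and 73073 to 205799 in luminal libraries, and smooth muscle markers to 30687 to 53240 and 9984 to 61015, with all 7 and all 6 of the genes detected and 0 called by limma (1 of each had an unadjusted p under 0.05). edgeR was also run on reads recovered from 3 libraries, without luminal replicate 2, so that its spread comes from the 2 basal libraries and the lone luminal library is assumed to vary like them. Over all genes it called 5.58%, of which 2.20% were higher and 3.38% lower in luminal cells. Of the stromal and smooth muscle genes it called 2 and 4 lower in luminal cells, and these differ in the library left out. Vim stood at 5856 and 7392 in basal libraries, at 2188 in luminal replicate 3 and at 9598 in luminal replicate 2, above both basal libraries. Dcn was lower in both luminal libraries, at 20256 and 5770 in luminal replicates 2 and 3 against 45830 and 47724 in basal libraries (log2 difference -2.11, limma adjusted p = 0.143). Acta2, Cnn1, Myh11 and Tagln overlapped between the cell types. Transcripts of the antigens that the sort excluded were found in sorted cells. Pdgfra (CD140a) stood at 3307 and 4144 in basal and 8383 and 2575 in luminal libraries, Pecam1 (CD31) at 833 and 637 and at 499 and 174, and Ptprc (CD45) at 150 and 6 and at 0 in both luminal libraries. Their part in the keratin values was not tested. For any keratin, fewer expressing cells and less RNA per cell cannot be told apart in bulk samples.

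Basal and luminal cells of the tips had different keratin sets. In luminal cells Krt5, Krt14 and Krt15 fell and Krt19 rose, the 4 of the 10 keratins that passed limma at an adjusted p of 0.05. Across all genes tested, limma called 0.694%, of which 0.438% were lower in luminal cells and 0.256% higher. By the study's own rule, a ratio of group averages of at least 2 or at most 0.5, 5 keratins were on the basal side and 4 on the luminal side, where all genes gave 16.3% and 18.3% (34.6% together), and only Krt7 was on neither. The same 9 keratins did not overlap between the cell types, 5 higher in both basal libraries and 4 higher in both luminal libraries, where 27.3% and 23.6% of all genes did so (50.9% together). The median log2 fold change of the 10, luminal minus basal, was -0.72, against -0.10 for all genes tested. Scaling to nuclear protein-coding genes moved the median of all genes to 0.22 and the genes past the ratio rule from 3431 luminal and 3051 basal to 4530 and 2114, and left 5 and 4 keratins on each side. Permuting 2 libraries against 2 cannot give a two-sided exact p below 0.333, so each p here comes from limma unless edgeR is named, with Benjamini-Hochberg adjustment over all genes tested. edgeR on 3 libraries called 4 of the 10 keratins lower and 3 higher in luminal cells, against the 3.38% and 2.20% given above.

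**Figure D1:**
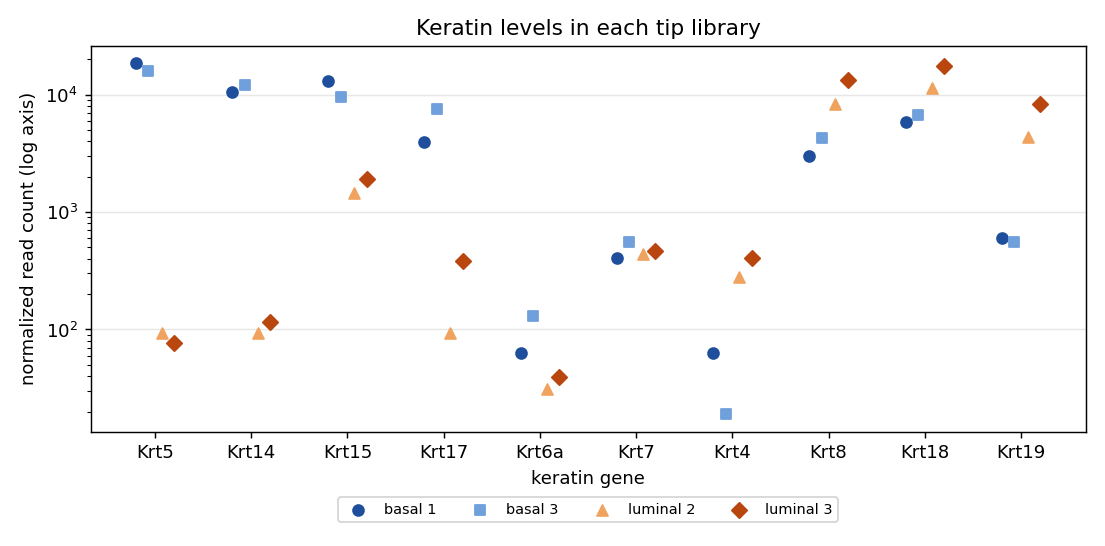
Normalized read count of each keratin (log axis) in the 4 tip libraries, with 1 point per library. Krt5 and Krt14 lie between 10628 and 18481 in basal libraries and at or under 116 in luminal libraries, Krt8, Krt18 and Krt19 are higher in both luminal libraries, and the points of Krt7 overlap between 407 and 559.

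Among the basal pair, Krt5 (ENSMUSG00000061527, chromosome 15, 101707070 to 101712898) stood at 18481 and 15824 in basal replicates 1 and 3 and at 93 and 77 in luminal replicates 2 and 3. Both basal libraries lay far above both luminal libraries, and the luminal values rest on 3 and 4 reads. The log2 fold change was -7.64 (standard error 0.26, limma adjusted p = 0.00613), and the 4 ratios of a basal to a luminal library ran from 170 to 240. From reads summed over each group, the ratio was 205 with a 95% counting interval of 99.7 to 511, which, like the other counting intervals, uses the reads of luminal replicate 2 and covers counting error only. Its type I partner Krt14 (ENSMUSG00000045545, chromosome 11, 100203162 to 100207548) stood at 10628 and 12173 in basal libraries and at 93 and 116 in luminal libraries, again with no overlap. On the log2 scale the difference was -6.76 (standard error 0.27, limma adjusted p = 0.00613), with library ratios of 91.6 to 131 and 3 and 6 reads in luminal cells. Without each library in turn, Krt5 ran from -7.78 to -7.51 and Krt14 from -6.92 to -6.60. Each of these 4 fits leaves 1 library in a cell type, which is assumed to vary like the 2 of the other, so that a call kept or lost in them, here and for other genes, is no independent support. Both genes passed in them.

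Krt15 (ENSMUSG00000054146, chromosome 11, 100131758 to 100135928), a basal keratin also known from stem cells of the hair follicle, stood at 13001 and 9510 in basal replicates 1 and 3 and at 1465 and 1898 in luminal replicates 2 and 3. It was lower in both luminal libraries, where it still rested on 47 and 98 reads. Luminal minus basal gave -2.74 on the log2 scale (standard error 0.27, limma adjusted p = 0.0384), and the ratios of basal to luminal libraries ran from 5.01 to 8.87. The call was lost without any 1 of the 4 libraries, where the fold change was -2.96 to -2.51 and the adjusted p 0.0946 to 0.135. The 95% limma intervals of Krt15 (-3.41 to -2.06) and Krt14 (-7.44 to -6.08) do not meet. Within a library and per kilobase of exon, Krt15 was at 1.22 and 0.777 times the level of Krt14 in basal cells. In luminal cells it was at 15.7 and 16.3 times, on only 3 and 6 reads of Krt14.

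Krt17 (ENSMUSG00000035557, chromosome 11, 100256217 to 100261029), a basal and injury-induced keratin, stood at 3939 and 7548 in basal replicates 1 and 3 and at 93 and 387 in luminal replicates 2 and 3. The groups did not overlap, but the libraries of each cell type were far apart, with 3 reads in luminal replicate 2 and 20 in replicate 3. Its difference of -4.84 on the log2 scale (standard error 0.73) did not pass (limma adjusted p = 0.0637), and it was -5.86 without luminal replicate 3 and -3.81 without luminal replicate 2. It passed where both groups had to pass the filter, with a pseudocount of 10 or 32 and with edgeR on 3 libraries (adjusted p of 0.00291 to 0.0165). Krt6a (ENSMUSG00000058354, chromosome 15, 101689910 to 101694307) stood at 63 and 130 in basal libraries and at 31 and 39 in luminal libraries, which is 10, 20, 1 and 2 reads. These counts give a ratio of basal to luminal of 2.67, with a 95% counting interval of 0.830 to 13.7 that includes no difference, and limma put the difference at -1.36 on the log2 scale (standard error 0.90, adjusted p = 0.466). The value of Krt6a is uncertain for a further reason, since 42.1% of the 100-base stretches of its longest transcript also occur in transcripts of Krt6b, Krt5 and other rows.

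Of the luminal pair, Krt8 (ENSMUSG00000049382, chromosome 15, 101996698 to 102004482) stood at 3012 and 4287 in basal replicates 1 and 3 and at 8320 and 13302 in luminal replicates 2 and 3. Krt18 (ENSMUSG00000023043, chromosome 15, 102028180 to 102032027) stood at 5874 and 6710 in basal libraries and at 11437 and 17523 in luminal libraries. Both genes were higher in both luminal libraries, and both were also found in basal cells, where Krt18 rested on 938 and 1034 reads and Krt8 on 481 and 660. The log2 fold change of Krt8 was 1.55 (standard error 0.33, limma adjusted p = 0.0705) and that of Krt18 was 1.17 (standard error 0.28, limma adjusted p = 0.0965). Neither passed, and their 95% limma intervals were 0.73 to 2.37 and 0.46 to 1.89. The difference of this pair between cell types was thus of another size than that of Krt5 and Krt14, whose intervals lie between -8.30 and -6.08.

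Krt19 (ENSMUSG00000020911, chromosome 11, 100140810 to 100148665) was the one keratin of the 10 that rose by limma. It stood at 601 and 552 in basal replicates 1 and 3 and at 4332 and 8306 in luminal replicates 2 and 3. The basal libraries were close to each other, and the average of the luminal libraries was 11.0 times theirs. Limma gave a log2 difference of 3.38 (standard error 0.36, limma adjusted p = 0.0410), and it was 2.91 to 3.85 without each library in turn, with an adjusted p of 0.0553 to 0.253 that no longer passed. Krt4 (ENSMUSG00000059668, chromosome 15, 101918535 to 101924735) had a similar fold change on far fewer reads. It stood at 63 and 19 in basal libraries, or 10 and 3 reads, and at 280 and 407 in luminal libraries, or 9 and 21 reads. The luminal libraries lay above the basal ones, with a log2 difference of 3.24 (standard error 0.85, limma adjusted p = 0.119), which was 2.41 when 32 in place of 1 was added before taking logs and 2.40 to 4.08 without each library in turn. The ratio of luminal to basal reads was 8.65 with a counting interval of 4.38 to 18.1.

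Krt7 (ENSMUSG00000023039, chromosome 15, 101411043 to 101430313) was the keratin without a separation. It stood at 407 and 559 in basal replicates 1 and 3 and at 436 and 465 in luminal replicates 2 and 3, so that the luminal values lay between the basal ones. Between the groups the log2 difference was -0.08 (standard error 0.36, limma adjusted p = 0.921), and its 95% interval of -0.98 to 0.82 leaves room for a change of either sign. The sign turned with the scaling, to 0.23 after scaling to nuclear protein-coding genes, and was 0.15 without basal replicate 3. Unlike Krt4 and Krt19, whose lowest luminal library was above the highest basal one, Krt7 thus gave no order.

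**Figure D2:**
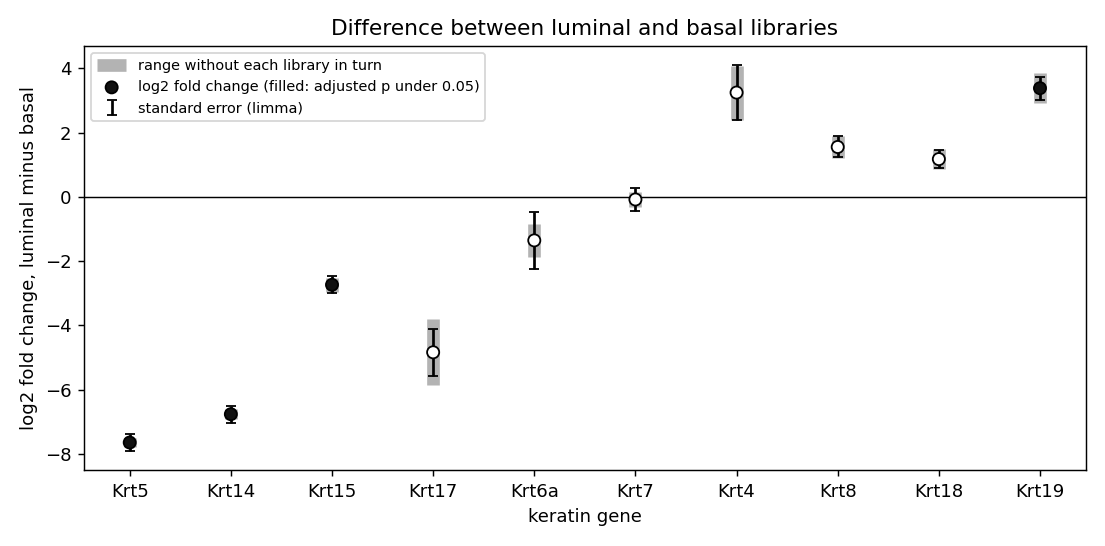
Log2 fold change of each keratin, luminal minus basal, on the scale of log2 of the normalized count plus 1 (points), with the standard error from limma (bars) and the range when each of the 4 libraries is left out in turn (grey). Filled points have an adjusted p under 0.05; Krt5, Krt14 and Krt15 lie below 0, Krt19 lies above, and the grey range of Krt17 runs from -5.86 to -3.81.

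The order of the keratins was compared per kilobase of merged exons, each keratin as a percent of the summed level of the 10. In basal cells Krt5 led, with 27.7% and 22.7% in replicates 1 and 3. Krt15 held 24.2% and 17.0%, Krt14 19.9% and 21.9%, and the order of Krt15 and Krt14 differed between the replicates. Krt18 held 13.4% and 14.7% and Krt17 8.35% and 15.4%, again in an order that changed. Krt8 followed with 5.06% and 6.91% and Krt19 with 1.07% and 0.939%, and Krt4, Krt6a and Krt7 each held at most 0.250%. Krt8 and Krt18 together were 18.5% and 21.7% of the keratin level in cells sorted as basal.

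In luminal cells the order began with Krt18, Krt8, Krt19 and Krt15 in both libraries. Krt18 held 50.6% and 48.5% in luminal replicates 2 and 3, Krt8 held 27.0% in each, and Krt19 held 14.8% and 17.8%. These 3 keratins of simple epithelium together made up 92.4% and 93.3%. Krt15 was the highest of the basal keratins with 5.27% and 4.27%, while Krt5 and Krt14 together held 0.605% and 0.402%. Set against all 21721 nuclear protein-coding genes per kilobase, Krt18 ranked 18th and 7th in luminal replicates 2 and 3 and 62nd and 61st in basal replicates 1 and 3, and Krt5 ranked 23rd and 24th in basal cells and 9313th and 9556th in luminal cells. The luminal share of Krt7 depends on the length used and was 0.328% with merged exons (7.05 kilobases) and 0.546% with the longest transcript.

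**Figure D3:**
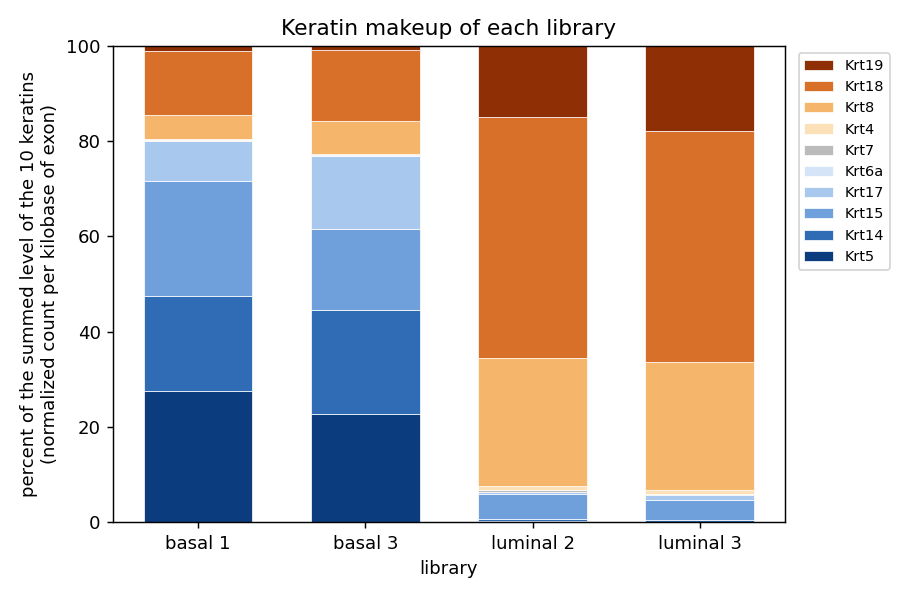
Percent of the summed level of the 10 keratins (normalized count per kilobase of exon) held by each keratin, with 1 bar per library. Krt5, Krt14, Krt15, Krt17 and Krt6a make up 80.2% and 77.1% of the basal bars and 6.34% and 5.73% of the luminal bars.

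Within each library, the balance of type II to type I keratins was compared. The summed level per kilobase of the 5 type II keratins was 0.494 and 0.431 times that of the 5 type I keratins in basal replicates 1 and 3, and 0.400 and 0.393 times in luminal replicates 2 and 3. Both luminal values lay below both basal values, by less than the spread between the basal libraries for the nearest of them. The partners Krt8 and Krt18 had a ratio of 0.376 and 0.469 in basal libraries and 0.534 and 0.557 in luminal libraries. Krt5 over Krt14 was 1.39 and 1.04 in basal libraries and 0.800 and 0.531 in luminal libraries, the latter on at most 6 reads per gene. The ratio of Krt8 and Krt18 to Krt5 and Krt14, which compares the luminal with the basal pair, was 0.389 and 0.486 in basal and 128 and 188 in luminal libraries. No test was run on these ratios. Reads of Krt5 and Krt8 may stand in other rows, which are given below, and would then be missing from the type II levels.

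**Figure D4:**
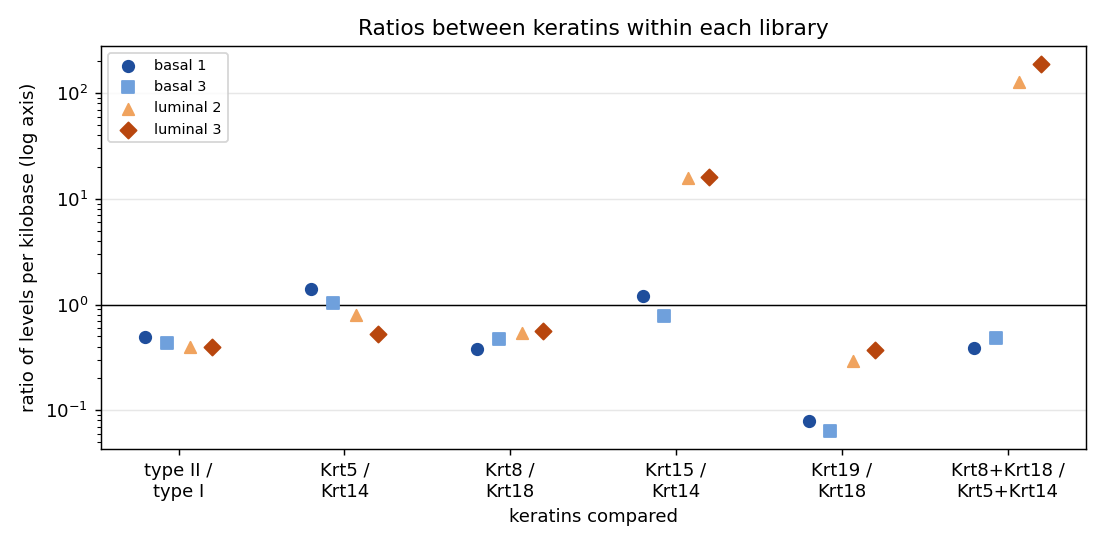
Ratios of keratin levels per kilobase within each library (log axis; the line marks 1), with 1 point per library. The ratio of type II to type I keratins lies between 0.393 and 0.494 in all 4 libraries, while Krt15 over Krt14 and the luminal over the basal pair separate the cell types. Luminal ratios with Krt5 or Krt14 rest on at most 6 reads of each of these genes per library.

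The 10 keratins held a small part of each library. They took 0.280% (95% Wilson interval 0.275 to 0.286) and 0.287% (0.281 to 0.293) of all normalized values in basal replicates 1 and 3, and 0.133% (0.124 to 0.142) and 0.212% (0.203 to 0.221) in luminal replicates 2 and 3. Both luminal libraries were lower, but as a share of nuclear protein-coding genes the values were 0.369%, 0.384%, 0.206% and 0.370%, so that luminal replicate 3 reached the basal libraries. These intervals cover counting error only.

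Some other rows of the table overlap a keratin or share sequence with it. Gm44323, annotated as a miRNA gene of 129 bases on the plus strand (chromosome 15, 101710274 to 101710402), lies wholly within an exon of Krt5, which is on the minus strand. It stood at 4666 and 4885 in basal replicates 1 and 3 and at 31 and 19 in luminal replicates 2 and 3, which is 25.2% and 30.9% of Krt5 in basal libraries. In luminal libraries it rests on 1 read in each, against 3 and 4 of Krt5, so that no share can be read there. Krt8-ps (chromosome 7, 23357125 to 23358069), a processed pseudogene that shares 100-base stretches with Krt8, stood at 770 and 1176 in basal and at 2181 and 3737 in luminal libraries, or 25.6% to 28.1% of Krt8 in every library. How reads that fit both rows were assigned, and whether strand was used, is not given in the sources used here, so the levels of Krt5 and Krt8 are uncertain by reads that may stand in these rows. In Krt8, 17.1% of the 100-base stretches of the transcript occur elsewhere in the annotation, against 3.81% in Krt5, 2.88% in Krt14 and none in Krt4, Krt7, Krt15, Krt17, Krt18 and Krt19.

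Genes with the most similar pattern over the 4 libraries were found by the Euclidean distance between profiles of log2 of the value plus 1, each centred on its own mean, among the 12543 genes that averaged at least 100. For Krt5 these were Gm44323 (distance 0.364), Zfp365 (0.427) and Gm29200 (0.527). Zfp365 stood at 225 and 253 in basal libraries and Gm29200, annotated as antisense, at 238 and 279, and both were at 0 in both luminal libraries. Against a floor of 3 reads per luminal library they were at least 3.15-fold and 3.41-fold lower there. Their distance to Krt5 thus rests on the 1 added before taking logs, and a fold change as large as that of Krt5 is not shown for them. For Krt8 they were Krt8-ps (0.106), Gm24407 (0.116) and 2310030G06Rik (0.156). Gm24407, annotated as a snRNA gene on chromosome 5, stood at 658 and 948 in basal and at 1839 and 3214 in luminal libraries, and 2310030G06Rik at 56 and 91 and at 156 and 252. The nearest row was thus, for Krt5, one that lies within its exons and, for Krt8, one that shares its sequence.

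The other keratin genes together held a small part of the keratin values. The table held 44 of them, of which 13 were at 0 in all libraries and 15 passed the filter, and together they made up 1.64% to 5.94% of all keratin values in a library. Limma called 0 of the 15 (7 had an unadjusted p under 0.05) and edgeR on 3 libraries called 2, Krt23 and Krt78, while by the ratio rule 7 were on the luminal and 7 on the basal side. Of all genes, limma called 0.694% and edgeR 5.58%, and the ratio rule put 18.3% on the luminal and 16.3% on the basal side. Among the other keratins, Krt20, Krt73, Krt78 and Krt79 passed the filter only through luminal cells, Krt73 on 1 read in each luminal library. Krt6b, Krt10, Krt16, Krt31, Krt42 and Krt75 passed only through basal cells. For these genes the filter itself picks the side on which they are high, so the split is no result about keratins. Krt23, a type I keratin, had the highest average count of the 44, not divided by length. It stood at 81 and 195 in basal replicates 1 and 3 and at 1122 and 1278 in luminal replicates 2 and 3 (log2 fold change 3.24, standard error 0.53, limma adjusted p = 0.0659). Krt78, a type II keratin, was at 0 in both basal libraries and at 93 and 368 in luminal libraries, at least 12.0-fold higher against a floor of 3 reads per library. On the basal side, Krt16, the wound-induced partner of the Krt6 keratins, stood at 269 and 468 in basal libraries and at 0 and 19 in luminal libraries. Krt31, a hair keratin, stood at 94 and 169 and was at 0 in both luminal libraries, at least 1.74-fold lower there against the same floor. Krt13, the type I partner of Krt4 in other epithelia, stood at 100 and 26 in basal and 93 and 290 in luminal libraries and overlapped.

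**Figure D5:**
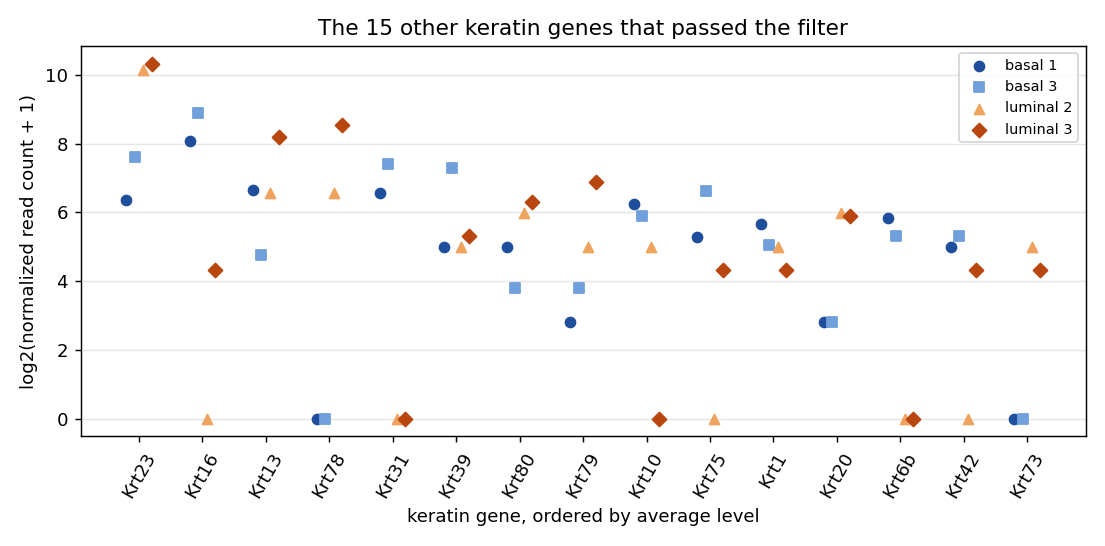
Log2 of the normalized read count plus 1 for the 15 other keratin genes that passed the filter, ordered by average level, with 1 point per library. Krt23 and Krt78 are higher in both luminal libraries, Krt16 and Krt31 in both basal libraries, and values at 0 lie on the lower edge.

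Genes that connect, regulate or bind keratins were read from 4 lists, whose counts stand against 16.3% of all genes on the basal and 18.3% on the luminal side by the ratio rule, and 0.694% called by limma and 5.58% by edgeR on 3 libraries. Of 13 plakins and other linkers that tie keratins to junctions, limma called 1 lower in luminal cells and 0 higher, and the ratio rule put 6 on the basal and 2 on the luminal side. The call was Dst, whose epithelial form links keratins to hemidesmosomes, at 91710 and 98605 in basal replicates 1 and 3 and 14802 and 14347 in luminal replicates 2 and 3, a log2 difference of -2.71 (standard error 0.26, limma adjusted p = 0.0354). Pkp1 and Pkp2, desmosomal plaque proteins, differed in opposite directions without passing limma. Pkp1 stood at 5179 and 2429 in basal and 125 and 484 in luminal libraries (log2 fold change -3.84, limma adjusted p = 0.0701), and Pkp2 at 69 and 45 and at 374 and 542 (2.99, limma adjusted p = 0.0705). edgeR on 3 libraries called Dst, Pkp1 and Plec lower and Pkp2 higher in luminal cells. The list's median log2 fold change was -0.25.

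Of 17 regulators of keratin genes, 16 passed the filter and limma called 1, Trp63, which encodes p63, the master factor of basal epithelium and an activator of Krt5 and Krt14. It stood at 14611 and 5015 in basal replicates 1 and 3 and at 93 and 155 in luminal replicates 2 and 3, a log2 difference of -6.14 (standard error 0.58) at a limma adjusted p of 0.0354. The basal libraries differed more in Trp63 than in Krt5 or Krt14. Tfap2c (AP-2 gamma) and Klf4 had log2 fold changes of -1.71 and -1.49 and did not pass (limma adjusted p = 0.165 and 0.169), while edgeR on 3 libraries called Trp63 and Klf4 lower in luminal cells. The median of the list was -0.46.

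Of 13 chaperones and binding partners limma called 0 (5 had an unadjusted p under 0.05) and edgeR on 3 libraries called 3 lower in luminal cells, with 4 on the basal and 0 on the luminal side by the ratio rule and a median of -0.81. Sfn (14-3-3 sigma, a partner of keratins in stratified epithelium) stood at 1898 and 3930 in basal and 125 and 329 in luminal libraries, Tgm2 (a transglutaminase) at 10841 and 5099 and at 1247 and 581, and Trim29 at 1177 and 650 and at 93 and 0. Both basal libraries exceeded both luminal libraries in each of these genes, and none passed limma (adjusted p = 0.0659, 0.0659 and 0.197), while edgeR on 3 libraries called these 3. Of 16 other intermediate filament genes 11 passed the filter, and limma called 0 (4 had an unadjusted p under 0.05) and edgeR on 3 libraries 1, Vim, whose values are given above, with 5 on the luminal and 0 on the basal side by the ratio rule and a median of 0.28. Of those on the luminal side, Prph, Ina and Nefh passed the filter only through luminal cells, on 1 to 5 reads per luminal library. There 1 read in each library is enough to pass. Nefl and Nefm, with 12 and 1 and with 9 and 1 basal reads, were left out. The split and the median thus depend on the filter and on depth. Des, the desmin of muscle, stood at 820 and 1715 in basal and 2834 and 3207 in luminal libraries, with the smooth muscle sums given above, and the part of smooth muscle RNA in it was not tested. The nuclear lamins Lmna and Lmnb1 had log2 fold changes of -0.58 and -0.91 (limma adjusted p = 0.264 and 0.374).

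Markers of other epithelia were read beside the keratins that are also used there. Of 5 urothelial genes 3 passed the filter, all 3 on the luminal side by the ratio rule and 0 called by limma (2 had an unadjusted p under 0.05) and 2 by edgeR on 3 libraries, where all genes gave 18.3% on the luminal side and 2.20% called higher in luminal cells by edgeR. Their list summed to 169 and 571 in basal replicates 1 and 3 and to 1277 and 1201 in luminal replicates 2 and 3, with Upk2 at 62 (2 reads) in luminal replicate 2 and at 0 in the other libraries. The 2 genes that edgeR called were Upk1a and Upk1b, both higher in luminal cells. Upk3b of the same list, which like Upk2 did not pass the filter, stood at 6 and 422 in basal and at 62 and 0 in luminal libraries, so the list did not move as one. The 5 genes of the seminal vesicle summed to 0 and 13 in basal and to 62 and 464 in luminal libraries, with Svs6 at 0 in all 4 libraries. Limma called 0 of the 1 that passed the filter (1 had an unadjusted p under 0.05). edgeR on 3 libraries called 2 of 3 tested higher in luminal cells, Pate4 and Svs4. Both were at 0 in both basal libraries and entered edgeR only through luminal replicate 3. The urothelial and seminal vesicle sums moved with Krt4, Krt19 and Krt23, and their part in those differences was not tested.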

How the data were processed

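The authors mapped reads to GRCm38 with STAR, counted genes with HTSeq on release 87 of the Ensembl annotation and scaled every library to the same number of aligned reads, and the deposited signal is this normalized count, rounded, per gene and library. Tool versions, counting mode, strand and the use of Picard are not given in the sources used here. The members and lists were chosen with earlier results of these data known. Of 49671 identifiers, 49326 matched the GENCODE annotation of GRCm38. One linker of 14 had no match. The value of 1 read was found from values up to 60 reads, and 98.0% to 99.3% of them lay within 1 unit of a multiple. For luminal replicate 2 the figure was 98.3%, within that range, but a check of units did not accept a single spacing for it. Luminal replicate 2 therefore entered no count model. Its reads enter only counting intervals, shares and floors, which hold as far as that spacing does.

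A gene entered the test if basal or luminal cells had no library below 10 and averaged at least 20. limma 3.58.1 (R 4.3.3) was fitted to log2 of the value plus 1 with a trended prior, luminal against basal, 2 libraries each, and was tested on simulated data. Intervals are at 95%, and counting intervals are exact. edgeR 4.0.16 was run on recovered reads of 3 libraries as an added alternative, and Python 3.11.15 with numpy 2.4.6, pandas 2.3.3, scipy 1.17.1 and matplotlib 3.10.9 was used. Levels between genes were compared per kilobase of merged exons. Besides the 10 keratins, the text names the 5 other keratins with the highest average count and the 3 genes nearest to Krt5 and to Krt8. Of each of the 4 lists of genes that connect, regulate or bind keratins or form other filaments, it names 3 members. These had the largest fold change at an average of 100 or more. Marker lists were read as a summary. Cldn3, Upk1a, Upk1b, Upk2, Upk3b, Svs4, Svs6, Pate4, Ptprc, Pecam1, Pdgfra, Vim, Dcn, smooth muscle genes, Plec, Prph, Ina, Nefh, Nefl, Nefm, Krt6b, Krt10, Krt20, Krt42, Krt73, Krt75, Krt79 and rows sharing sequence were named after their values were seen.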

Additional observations from a re-analysis of the deposited data

How the results depend on the processing

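No paired analysis was possible because the cell types share only 1 replicate number. edgeR and DESeq2 on reads of all 4 libraries were not run, since a single spacing was not accepted for luminal replicate 2. Of 140 values of single keratins under 14 alternatives, 115 kept their direction and side of the threshold, 14 lost the call, 9 gained it and 2 turned, both of Krt7: 0.23 after scaling to nuclear protein-coding genes, and -0.31 to 0.15 without each library in turn, the latter without basal replicate 3. Krt5 and Krt14 lost their call only without a filter on low values. Krt15 and Krt19 lost theirs also without the trended prior and without each library in turn. Limma called 48 genes higher in luminal and 82 in basal cells; it called 0 and 0 without a filter (1410 and 3045 had an unadjusted p under 0.05, with 4 keratins on each side), 269 and 409 where both groups had to pass it, 212 and 319 with a pseudocount of 10, 274 and 394 with 32, 359 and 669 with quantile normalization, 223 and 321 without the trended prior, and 6 to 830 and 14 to 751 without each library in turn. edgeR on 3 libraries, chosen after seeing the data, called 414 and 636. Keratins called higher in luminal cells were 1 of 10 in the main fit of limma and 0 without a filter, 3 where both groups had to pass (Krt8, Krt18 and Krt19), 2 with a pseudocount of 32, 0 without the trended prior, 0 to 0 without each library in turn and 3 with edgeR. Keratins called higher in basal cells were 3, 0 without a filter, 2 without the trended prior and without each library in turn, and 4, with Krt17, where both groups had to pass, with a pseudocount of 10 or 32 and with edgeR. By the ratio rule genes on the luminal and basal side were 1456 and 1133 at a fold of 4, with 2 keratins on the luminal side, 6535 and 7806 without a filter, and 1852 and 1792 where both groups had to pass. On the luminal side they were 3760 to 5554 without each library in turn, the highest without luminal replicate 3. Over nuclear protein-coding genes the mean share of the 10 keratins was 0.376% in basal and 0.288% in luminal cells. With the length of the longest transcript, the mean makeup was 0.372% for Krt7 and 1.16% for Krt19 in basal cells, and 0.546%, 26.1%, 47.9% and 18.6% for Krt7, Krt8, Krt18 and Krt19 in luminal cells. The type II to type I ratio in luminal cells was then 0.384, and 0.380 over all keratin genes detected. Depth limits Krt4, Krt5, Krt6a, Krt14 and Krt17, each at 10 reads or fewer in at least 1 library.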
